A study of Rattus norvegicus with 32 samples.

Results

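The 7 exposed groups of a rat uterus series, averaged, were compared with the vehicle group over all genes. The comparison took in 32 of the 32 libraries: 28 from exposed rats, as 7 groups of 4, and 4 from vehicle rats. Each exposed group counted equally, so the contrast is the mean of 7 group means minus the control mean. All rats were Sprague-Dawley females of the NCTR colony (Sprague-Dawley/CD23/NctrBR), and the uterus was taken at PND365 (PND, postnatal day). Of the exposed groups, 5 received bisphenol A (BPA) by gavage, in daily doses of 2.5, 25, 250, 2500 and 25000 µg per kg. The other 2 received ethinyl estradiol (EE2), a synthetic estrogen, in daily doses of 0.05 and 0.5 µg per kg, and the control rats received the vehicle, 0.3% carboxymethylcellulose. Dosing began in the dams on gestation day 6 and directly in the pups on postnatal day 1. The comparison asks which changes were common to every exposure and how far they rest on the 4 controls, which all 7 comparisons with vehicle share.

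EE2 and BPA both bind estrogen receptors, EE2 much more strongly. In the uterus, estrogen receptors act in epithelium, stroma and muscle. They raise progesterone receptor and local growth factors such as IGF1, and they drive growth of the epithelium. The uterus of a cycling rat changes in size, cell make-up and gene expression with the estrous cycle, and the labels give no cycle stage.

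Total counts per library ran from 11777809 to 24661856. The controls averaged 13710993.5 ± 1298540 (SD, n = 4) and the exposed libraries 16564179.1 ± 3250310 (SD, n = 28), a difference that an exact two-sided permutation test over 35960 splits put at p = 0.0932. By their median correlation with the other libraries, 4 exposed libraries stood apart: BPA 2.5 library 1 (0.892), BPA 2.5 library 3 (0.911), BPA 250 library 1 (0.911) and BPA 25000 library 3 (0.926), against 0.941 to 0.960 in the controls. The uterine positional genes Hoxd10 (118 ± 30.3 CPM, SD, n = 4) and Emx2 (125 ± 12.5 CPM) were present in the controls, as were the smooth muscle genes Acta2 and Myh11. CPM are counts scaled to a common library total, and values after ± are SDs over the 4 control or the 28 exposed libraries. No label ties a library to an animal or litter. The spread that the p-values measure is therefore that between libraries, and it may be technical.

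Of 13312 genes tested, 143 (1.07%) differed between the exposed mean and control at an adjusted p under 0.05, in edgeR's quasi-likelihood test with Benjamini-Hochberg adjustment. Of these, 52 (0.391%) were higher and 91 (0.684%) lower in the exposed groups, and 2374 (17.8%) had an unadjusted p under 0.05. The median log2 fold change of all tested genes was 0.0031. Without the 4 libraries that stood apart 520 genes were called, 262 higher and 258 lower, all 143 among them.

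The calls rested on the controls. In this contrast the control mean would carry 87.5% of the variance if all libraries varied alike, against 50% in a comparison of a single exposed group. From the spread in these libraries, the median share was 76.7% over tested genes and 83.6% over called genes. Leaving out control library 1 gave 187 called genes, 101 of them among the 143. Leaving out control library 2 gave 0, library 3 gave 1 and library 4 gave 3, all of them among the 143. A refit with fewer controls also has a less precise control mean, which by itself can lower the count. The 0 without control 2 stood beside 1665 genes at an unadjusted p under 0.05, and the smallest adjusted p was 0.0541, for Adcyap1r1. In each of the 4 refits all 143 genes kept their direction. Their median size was 1.10, 0.911, 0.964 and 1.03 times that with all controls, and 143, 142, 143 and 143 of them stood at an unadjusted p under 0.05. The 143 were chosen with all 4 controls and each refit reused the other libraries, so nothing is read from these values. Leaving out 1 of the 28 exposed libraries gave between 35 (BPA 25000 library 4) and 379 (BPA 2.5 library 4) called genes, and for 19 of the 28 the count moved over 1.5 times. For the 91 lower genes the controls were not alike. Control 1 lay nearest to the exposed libraries for 60 of them, and for 13 it lay on the other side of the exposed mean, whereas control 2 lay farthest away for 60. Each gene described below as risen or fallen is a call with all 4 controls and is subject to these counts.

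**Figure D1:**
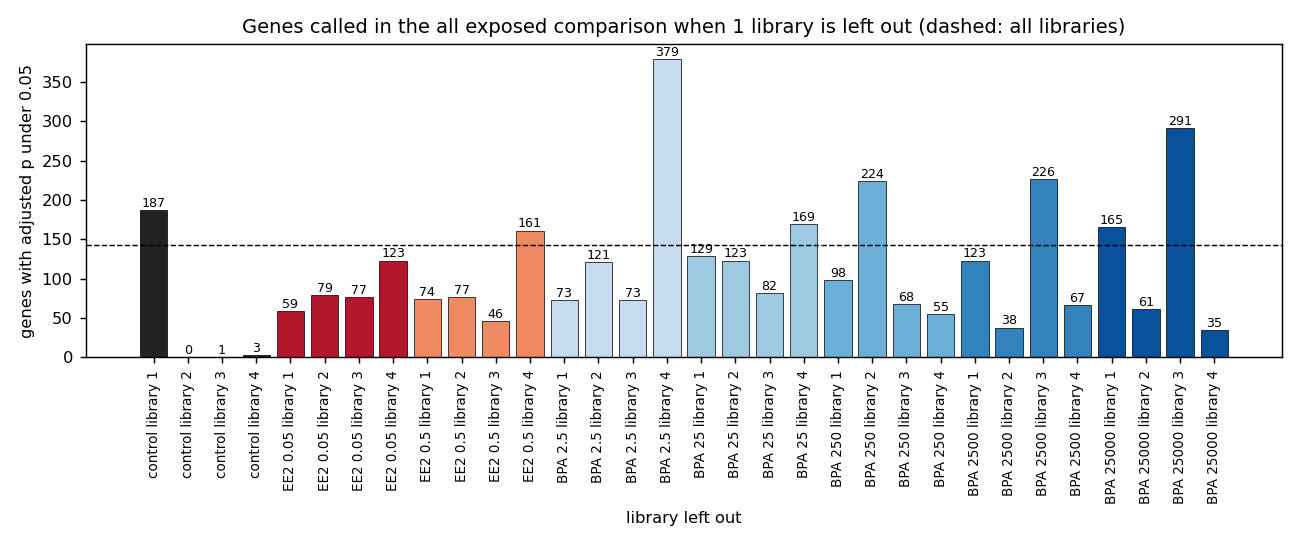
Number of genes called in the comparison of all exposed groups with vehicle (y axis, adjusted p under 0.05) when the library on the x axis is left out; bars are coloured by group and the dashed line marks the 143 genes called with all 32 libraries. The bars for control libraries 2, 3 and 4 stand at 0, 1 and 3, and those for exposed libraries between 35 and 379.

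The gene with the smallest p was Adcyap1r1, which encodes PAC1, the high-affinity receptor of the neuropeptide PACAP. It was at 3.36, 3.03, 5.07 and 5.08 CPM in the 4 controls. In the 28 exposed libraries it ran from 5.99 to 27.1 CPM with a median of 11.5, so every exposed library lay above every control. The log2 fold change was 1.56 (SE 0.24, adjusted p = 0.00679). Mean levels were 15.1 CPM in EE2 0.05 and 11.2 in EE2 0.5, and 9.55, 11.9, 9.66, 11.1 and 20.1 CPM in BPA from the lowest to the highest dose. It passed in 6 of the 7 comparisons with vehicle, the exception being BPA 2500 (adjusted p = 0.159). The call held without control 1, 3 or 4 (adjusted p = 0.00909, 0.0304 and 0.0248) and was lost without control 2 (log2 fold change 1.44, adjusted p = 0.0541). Of the PACAP and VIP signalling list 3 genes were tested, Adcyap1r1 among them. Vipr2, a receptor shared by PACAP and VIP, was at 5.43 ± 3.17 CPM in the exposed and 1.53 ± 0.605 CPM in the control libraries, with a log2 fold change of 1.75 (SE 0.54) that did not pass (adjusted p = 0.087), and Vipr1 had a log2 fold change of 0.44 (SE 0.45). RefSeq places the Adcyap1r1 start region at chr4:85923921-85924220 on the plus strand of GRCr8 (the deposited counts were made on rn5). It is shown, from 250 bases before to 50 after the start, because this gene had the smallest p.
Adcyap1r1: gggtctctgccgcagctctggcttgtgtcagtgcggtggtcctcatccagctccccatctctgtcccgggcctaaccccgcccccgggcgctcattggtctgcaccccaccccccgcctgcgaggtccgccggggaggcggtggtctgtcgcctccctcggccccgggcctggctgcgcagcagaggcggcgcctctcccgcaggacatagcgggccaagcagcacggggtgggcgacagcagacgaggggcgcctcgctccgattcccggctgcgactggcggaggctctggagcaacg
None of the 5 motifs described further below was found in it.

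**Figure D2:**
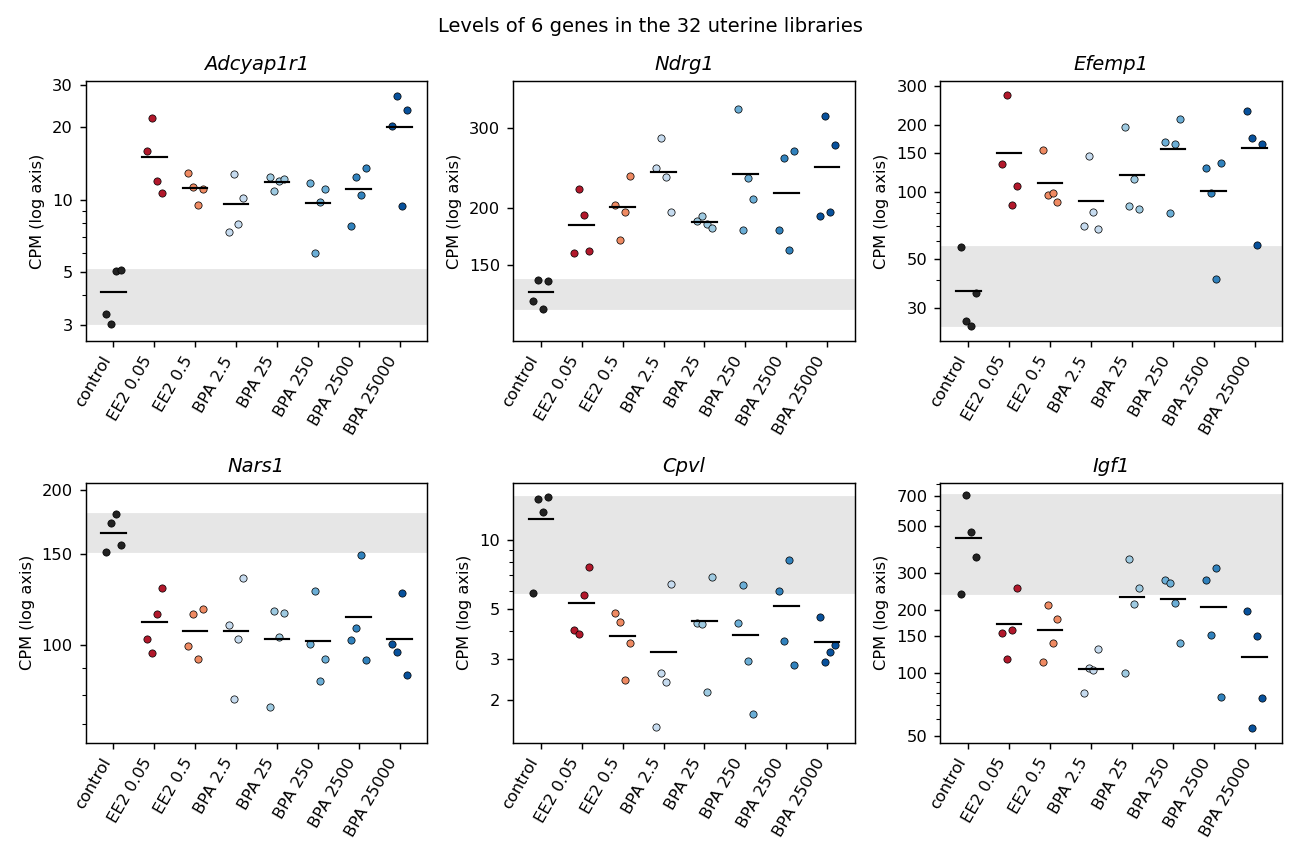
Level of 6 genes in each library (points; CPM on a log axis) by group on the x axis, with group means as bars and the range of the 4 controls as a grey band. All 28 exposed libraries lie outside the band for Adcyap1r1, Ndrg1 and Nars1, while Efemp1, Cpvl and Igf1 have exposed libraries inside it.

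Complete separation of the 28 exposed from the 4 control libraries was found for 10 genes (0.0751%), 8 above (0.0601%) and 2 below (0.015%) the controls. Of these, 8 were among the 143 called. Nars1, the asparaginyl-tRNA synthetase that loads asparagine for protein synthesis, was at 151, 173, 180 and 156 CPM in the controls and at 75.8 to 149 CPM (median 103) in the exposed libraries. Its log2 fold change was -0.64 (SE 0.12, adjusted p = 0.0272). The values of its 7 groups lay close together, from -0.54 to -0.70, and the groups did not pass the test for differing among themselves (adjusted p = 0.968). Ndrg1, a stress-responsive gene, was at 125, 139, 120 and 138 CPM in the controls and at 159 to 330 CPM (median 196) in the exposed libraries. It rose by 0.71 (SE 0.15, log2, adjusted p = 0.0272). Tcp11l2 rose from 35.1 ± 2.22 to 65.3 ± 16.5 CPM (log2 fold change 0.89), and Dusp26, a phosphatase gene, rose from 1.84 ± 0.455 to 6.48 ± 3.26 CPM (log2 fold change 1.75). Ak5, a nucleotide kinase known from brain, was at 0.172, 2.29, 1.59 and 1.18 CPM in the controls and between 3.64 and 307 CPM in the exposed libraries (log2 fold change 4.59, SE 0.98). Its spread among the exposed was wide: the highest value was BPA 25 library 1. Slc17a4, a phosphate transporter family member, held 2 counts in the 4 controls and 2931 in the exposed. Per library total this is a ratio of 168 (95% counting interval 46.5 to 1389). Nid2-ps16, a transcribed pseudogene in RefSeq whose reads may belong to a related copy, was lower (log2 fold change -0.79, SE 0.16). Napsa and Slc2a9 also separated fully but did not pass (adjusted p = 0.0505 and 0.0805).

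The Nars1 start region, chr18:60275733-60276032 on the minus strand of GRCr8, is shown since Nars1 was the protein-coding gene whose libraries all lay below the vehicle. Capitals mark TGANTCA, the AP-1 site, at 96 and 48 bases before the start.
Nars1: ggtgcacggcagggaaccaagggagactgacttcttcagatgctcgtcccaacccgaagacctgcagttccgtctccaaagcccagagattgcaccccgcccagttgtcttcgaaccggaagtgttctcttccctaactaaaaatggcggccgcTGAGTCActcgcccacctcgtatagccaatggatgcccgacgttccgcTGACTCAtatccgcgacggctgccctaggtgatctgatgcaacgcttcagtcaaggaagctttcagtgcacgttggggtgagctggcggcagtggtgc

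Several of the called rises were in genes whose products are secreted. They were picked here and were not a list, and the list of stroma and matrix markers is given after them. Efemp1, which encodes the matrix glycoprotein fibulin-3, was at 56.2, 26.1, 25 and 35.1 CPM in the controls and at 40.7 to 274 CPM (median 110) in the exposed libraries. All 28 exposed libraries lay above the control mean, and 1 of them lay below control 1 (log2 fold change 1.80, SE 0.36, adjusted p = 0.0272). Pamr1, a secreted peptidase-domain protein, was at 1.67 to 4.18 CPM in the controls and at a median of 16.9 CPM in the exposed libraries (log2 fold change 2.92). Adamts5, an aggrecan-cleaving protease, and Ccn3, a matricellular protein, rose by 1.92 and 2.51 on the log2 scale. Vegfd, a growth factor for lymphatic vessels, rose from 3.77 ± 2.67 to 18.4 ± 12.1 CPM (log2 fold change 2.21). Smaller rises were those of the serine protease gene Prss23 (1.19) and of gelsolin (Gsn), which severs actin filaments (0.75). Among transcriptional regulators, Cited2 rose from 41.2 ± 5.72 to 101 ± 39.1 CPM, and Klf15, Sox4 and Hdac9 rose by 1.44, 1.80 and 1.64. The 16 stroma and matrix markers as a list lay 9 above and 7 below control. Of these 0 were called by edgeR (3 at an unadjusted p under 0.05), 2 by DESeq2 and 4 by limma voom. Over all 13312 tested genes, DESeq2 called 654 and limma voom 2534, and 17.8% had an unadjusted p under 0.05 in edgeR. Counts near these shares are not a result about the list. In whole tissue, fewer cells of a type and less RNA per cell cannot be told apart.

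The falls given next came from genes of different functions. They were picked here and were not a list, and not all had the smallest p-values. Falls of cholesterol synthesis genes, some with smaller p-values than Psph and Cyp11a1, are given further below. C3h15orf48, which encodes a small mitochondrial protein and whose transcript carries Mir147, was at 18.1, 131, 103 and 52.2 CPM in the controls and at 10.2 to 58.5 CPM (median 21.3) in the exposed libraries. Its log2 fold change was -1.74 (SE 0.30, adjusted p = 0.0224), -2.07 without control 1 and -1.34 without control 2. Controls 1 and 4 lay within the exposed range and controls 2 and 3 above it. Since the C3h15orf48 transcript carries Mir147, reads of C3h15orf48 and Mir147 cannot be told apart. Gcsh, a subunit of the glycine cleavage system, was at 58.9, 82.9, 77 and 45.8 CPM in the controls and at a median of 34.6 CPM in the exposed libraries (log2 fold change -0.92). Psph, the last enzyme of serine synthesis, had controls of 19.6, 75.0, 47.6 and 32 CPM and an exposed median of 19.4 (log2 fold change -1.08, and -0.68 without control 2). Cpvl, a carboxypeptidase gene, was at 5.86, 15, 13.2 and 15.5 CPM against an exposed median of 3.95 (log2 fold change -1.59), with control 1 inside the exposed range. Cyp11a1, the first enzyme of steroid hormone synthesis, was at 0.0862, 4.29, 3.41 and 1.39 CPM against an exposed median of 0.297. The ovary and oviduct list had 5 tested genes, of which Cyp11a1 was the 1 called (0.684% of all tested genes were called lower). Lhcgr and Inha of that list, markers of hormone-producing ovarian cells, had log2 fold changes of 0.72 and 0.17.

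Among signalling and adhesion genes that fell were 2 BMP antagonists of the chordin family: Chrd (log2 fold change -0.90) and Chrdl2 (log2 fold change -1.52). Of the 17 BMP signalling genes tested, Chrd was the 1 called by edgeR, which called 0.684% of all tested genes lower. DESeq2 called 2 higher and 1 lower (428 and 226 of all 13312), and limma voom 3 higher and 2 lower (1026 and 1508). Grhl3, an epithelial transcription factor, was at 8.50 to 11.5 CPM in the controls and at a median of 2.61 CPM in the exposed libraries (log2 fold change -1.65). Its edgeR call was lost without control 1 (adjusted p = 0.0543). Nrg2, an ErbB ligand, Adgrb1, an adhesion receptor, Enah, an actin regulator, and Clic5, of the chloride intracellular channel family, had log2 fold changes of -1.10, -1.54, -0.72 and -1.05. BPA 2500 library 3 lay above every control for Grhl3 (13.3 CPM) and Nrg2 (23.9 CPM). For Adgrb1 it was at 21.9 CPM, within the control range. The size of 2 more falls depended on a single control. Selp, the adhesion molecule P-selectin, was at 17.8, 179, 36.9 and 90.7 CPM in the controls, and its log2 fold change of -1.18 became -0.43 without control 2. Get1, which inserts tail-anchored membrane proteins, went from -0.78 to -0.46 without that library. Several named genes overlap another gene in RefSeq, so part of their reads is uncertain. Ak5, Pear1, Gltpd2, Ndufb9, Nrg2, Adgrb1 and S100g overlap a protein-coding gene. Prss23, Tcp11l2, Hmgcs1, Dusp26, Clic5, Esr1, Grhl3 and Hdac9 overlap a non-coding one, and Tmem196, Vegfd and Psmd14 a pseudogene.

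In the insulin-like growth factor (IGF) system, the growth factor gene fell while binding protein and adaptor genes rose. Of 14 genes tested, 3 rose and 1 fell, and the median log2 fold change was 0.47 against 0.0031 for all genes. Over all tested genes 0.391% were called higher and 0.684% lower. Igf1, a local mediator of uterine growth, was at 237, 702, 469 and 355 CPM in the controls and at 54.4 to 350 CPM (median 153) in the exposed libraries. Every exposed library lay below the control mean, but some lay above control 1 (log2 fold change -1.40, SE 0.27, adjusted p = 0.0272). Igfbp3, a binding protein that carries IGF1, was at 30.5, 23.5, 29.7 and 38.9 CPM in the controls and at 34.7 to 186 CPM (median 74.8) in the exposed libraries (log2 fold change 1.43, SE 0.30). Igfbp1, a binding protein known from decidua and liver, held 15 counts in the 4 controls, at most 0.652 CPM, and ran from 0.594 to 120 CPM in the exposed libraries (log2 fold change 5.33, SE 1.21, adjusted p = 0.0349). Irs2, an adaptor below the insulin and IGF1 receptors, rose from 32.4 ± 8.08 to 82.8 ± 37.3 CPM. The receptors Igf1r and Insr had log2 fold changes of 0.45 (SE 0.19, adjusted p = 0.209) and 0.59 (SE 0.18, adjusted p = 0.088). Without control 2, 3 or 4, 0 of the 14 passed in edgeR, with 8, 6 and 8 above and 1, 2 and 2 below control at an unadjusted p under 0.05.

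Cholesterol synthesis genes were lower in the exposed groups. Of 23 tested, 8 fell, 0 rose, and 22 lay below control, with a median log2 fold change of -0.77 and 20 lower at an unadjusted p under 0.05. Over all 13312 genes, 0.684% were called lower, 6585 lay below control and 1223 were lower at that unadjusted level. The called genes were Hmgcs1, Fdps, Fdft1, Cyp51, Tm7sf2, Msmo1, Hsd17b7 and Sc5d, enzymes from the entry of the pathway to its late sterol steps. Hmgcs1, which makes HMG-CoA, was at 155, 331, 257 and 287 CPM in the controls and at 57.6 to 451 CPM (median 108) in the exposed libraries (log2 fold change -1.04, SE 0.23, adjusted p = 0.0341). Hsd17b7, a late reductase of the pathway that also acts on estrone, was at 7.42, 16.4, 12 and 16.1 CPM against a median of 5.52 CPM (log2 fold change -1.23, SE 0.25). The summed level of the list was 2002, 2222, 2439 and 2790 CPM in the controls and ran from 812 to 3420 CPM (median 1347) in the exposed libraries. The exposed libraries that reached the control range were library 3 of EE2 0.05, libraries 2 and 4 of BPA 25 and library 2 of BPA 250. Without control 2, 3 or 4, 0 members passed in edgeR (17, 16 and 16 were lower at an unadjusted p under 0.05), and the list median was -0.68, -0.76 and -0.75.

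Genes of energy metabolism and protein turnover lay below control in smaller steps. All 28 respiratory chain genes tested lay below control, 6 of them called (Ndufb2, Ndufb9, Uqcrh, Cox5b, Atp5mc1 and Atp5po), with a median of -0.55. Among all genes 0.684% were called lower and 6585 of 13312 lay below control. The fall was uneven over the groups. The list median was -1.03 in BPA 2.5 and -0.79 in EE2 0.5, but -0.22 in BPA 25 and -0.24 in BPA 250. Of the 28 genes 53.6% differed among the exposed groups, against 29.7% of all genes. Atp5po, a stalk subunit of ATP synthase, was at 118, 203, 195 and 157 CPM in the controls and at a median of 115 CPM in the exposed libraries (log2 fold change -0.56, SE 0.13). Of 24 proteasome genes, 2 fell (Psmd12 and Psmd14, subunits of the regulatory particle) and 23 lay below control, with a median of -0.30. Their summed level was 2389 to 2663 CPM in the controls and 1306 to 2333 CPM in the exposed libraries, so that the groups did not overlap. Of the 37 lists, 2 had such a separation of sums, the other being PACAP and VIP signalling, whose sum includes Adcyap1r1 and is no separate result. The 30 cytosolic ribosome genes all lay below control with 0 called by edgeR (median -0.40, 14 at an unadjusted p under 0.05). DESeq2 called 1 of them (654 of all 13312 genes) and voom 7 (2534 of all). The median of the 30 ran from -0.99 in BPA 2.5 to -0.10 in BPA 25, and 43.3% of them differed among the exposed groups. Without control 3 the median of the 30 was -0.23, with 27 below control and 1 at that unadjusted level. In the same direction, all 16 smooth muscle markers lay below control with 0 called by edgeR (median -0.47, 8 at an unadjusted p under 0.05), 2 by DESeq2 and 11 by voom. Their summed level was 28184, 45847, 24366 and 34793 CPM in the controls and 14512 to 35307 CPM in the exposed libraries; its part in the other lists was not tested. With upper-quartile scaling the calls of the respiratory chain and proteasome lists went to 0 (20 and 15 at an unadjusted p under 0.05), with medians of -0.53 and -0.29. They were also 0 without control 2, 3 or 4.

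**Figure D3:**
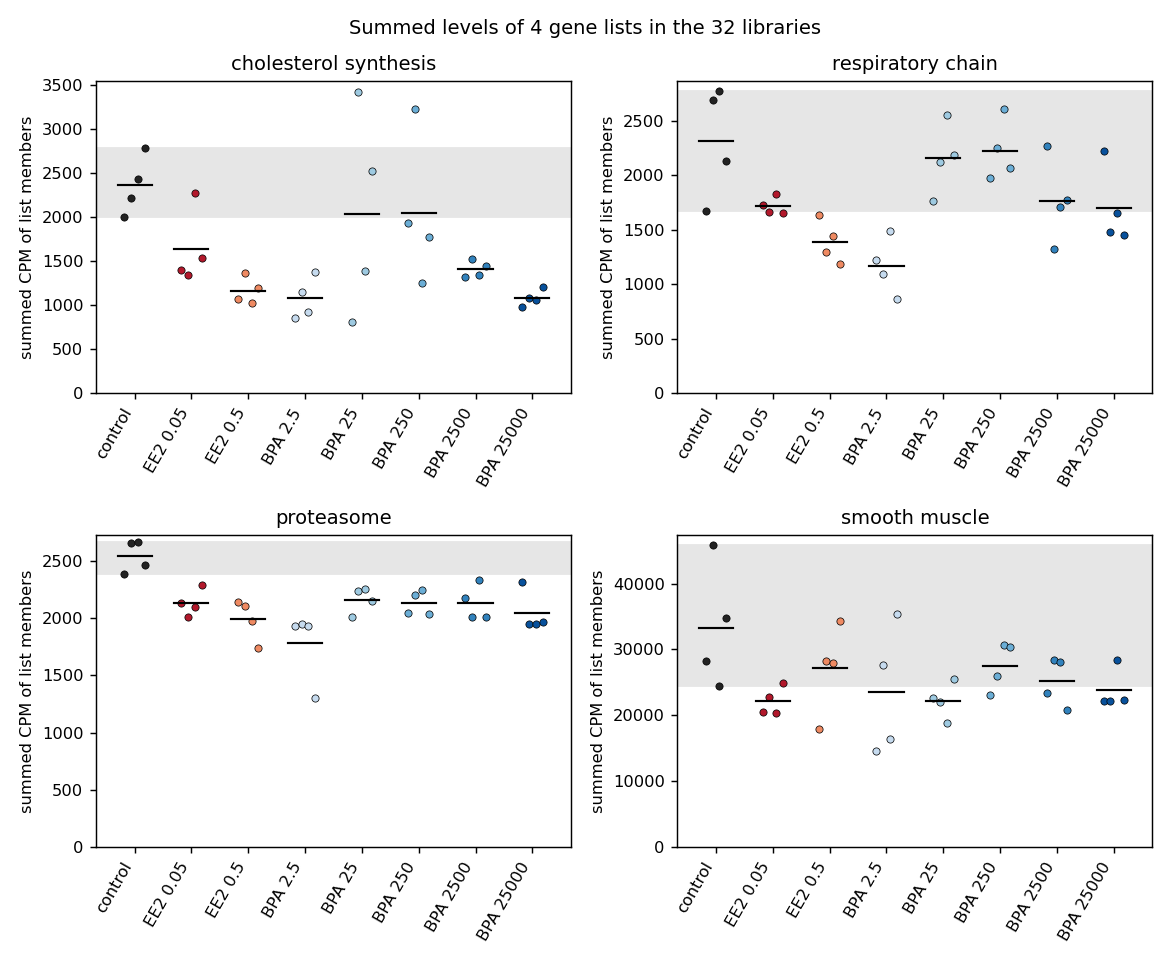
Summed CPM (y axis) of the members of 4 gene lists in each library by group (x axis), with group means as bars and the range of the 4 controls as a grey band. Exposed libraries lie below the band throughout only for the proteasome list, and for cholesterol synthesis 2 exposed libraries lie above it, at 3420 and 3237 CPM.

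Classical estrogen response genes lay on both sides of control, 8 above and 12 below. Of 20 tested, edgeR called 1 lower (Igf1) and 0 higher (4 and 2 at an unadjusted p under 0.05). DESeq2 called 2 lower and 2 higher, and limma voom 4 lower and 1 higher. Over all 13312 genes edgeR called 0.684% lower and 0.391% higher, DESeq2 226 and 428 genes, and limma voom 1508 and 1026. The median log2 fold change of the 20 was -0.06. The estrogen receptor gene Esr1 was at 188, 144, 107 and 147 CPM in the controls and at a median of 137 CPM in the exposed libraries (log2 fold change -0.05, SE 0.16). The progesterone receptor gene Pgr was at 224, 326, 223 and 286 CPM in the controls and at a median of 155 CPM in the exposed libraries, with a log2 fold change of -0.70 (SE 0.25) that did not pass (adjusted p = 0.133). S100g, the calcium-binding calbindin-D9k of the uterus, was at 761, 721, 1070 and 493 CPM in the controls with a median of 181 CPM in the exposed libraries, and its log2 fold change of -1.67 (SE 0.48) did not pass either (adjusted p = 0.0761). The proliferation marker Mki67 was at 51, 17.5, 127 and 31.5 CPM in the controls, and its log2 fold change of -0.22 was 0.55 without control 3. The 25 cell cycle genes lay 8 above and 17 below control, all 25 lay above it without that library, and 22 did with limma voom. Of them 0 were called by edgeR (1 at an unadjusted p under 0.05), 1 by DESeq2 and 0 by voom.

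Markers of other cell types moved with the exposed groups in part. Over all 13312 genes edgeR called 0.391% higher and 0.684% lower, and 17.8% had an unadjusted p under 0.05. DESeq2 called 654 of all genes and limma voom 2534. Of the 15 macrophage markers tested 2 rose: Gpnmb, at 72.1, 22.1, 51.2 and 39.2 CPM in the controls against 65.5 to 352 CPM (median 124), and the scavenger receptor Cd163, at 1.22 ± 0.940 against 6.28 ± 3.42 CPM. Of the 15 macrophage markers 12 lay above and 3 below control, with a median of 0.355, and 6 were higher and 0 lower at an unadjusted p under 0.05. DESeq2 called 2 of them higher and limma voom 6. The defining markers Csf1r and Lyz2 had log2 fold changes of 0.36 and 0.04. The list's summed level was 850 to 1546 CPM in the controls and 633 to 2505 CPM in the exposed libraries. All 11 squamous epithelium genes tested lay above control (10 with limma voom), 1 of them called. This was Calml3, with 2 counts in the controls and a ratio of 98.1 (95% counting interval 27.1 to 810). Its level was highest in libraries 3 and 4 of EE2 0.05, at 29.3 and 13.1 CPM (0.208 and 0.439 in libraries 1 and 2). It was 3.02 to 9.82 CPM in EE2 0.5, 1.66 to 9.76 CPM in BPA 2.5 and 0 to 0.624 CPM in BPA 250. Krt5 and Krt14, keratins of stratified epithelium, held 3 control counts each, with ratios of 529 (interval 181 to 2566) and 113 (interval 38.7 to 550), and did not pass (adjusted p = 0.0685 and 0.0981). These ratios came from a few groups. Krt5 was at 266 and 104 CPM in libraries 3 and 4 of EE2 0.05 (0 and 0.293 in libraries 1 and 2), at 19.5 to 178 CPM in EE2 0.5 and at 11 to 24.4 CPM in BPA 2.5. In the 16 libraries of the higher BPA doses it was at most 2.31 CPM. All 10 ciliated cell genes lay above control with a median of 2.33, which was 1.43 without the 4 libraries that stood apart. Of them 0 were called by edgeR (6 at an unadjusted p under 0.05), 5 by DESeq2 and 2 by voom. Fat cell genes (12 tested, median 1.08) and mast cell and eosinophil genes (13 tested, median 1.05) had 0 calls by edgeR (3 and 4 at an unadjusted p under 0.05), 1 and 1 by DESeq2 and 3 and 1 by voom. Pear1 was the 1 endothelial gene of 14 that rose. The part of these cell types in the other results was not tested.

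**Figure D4:**
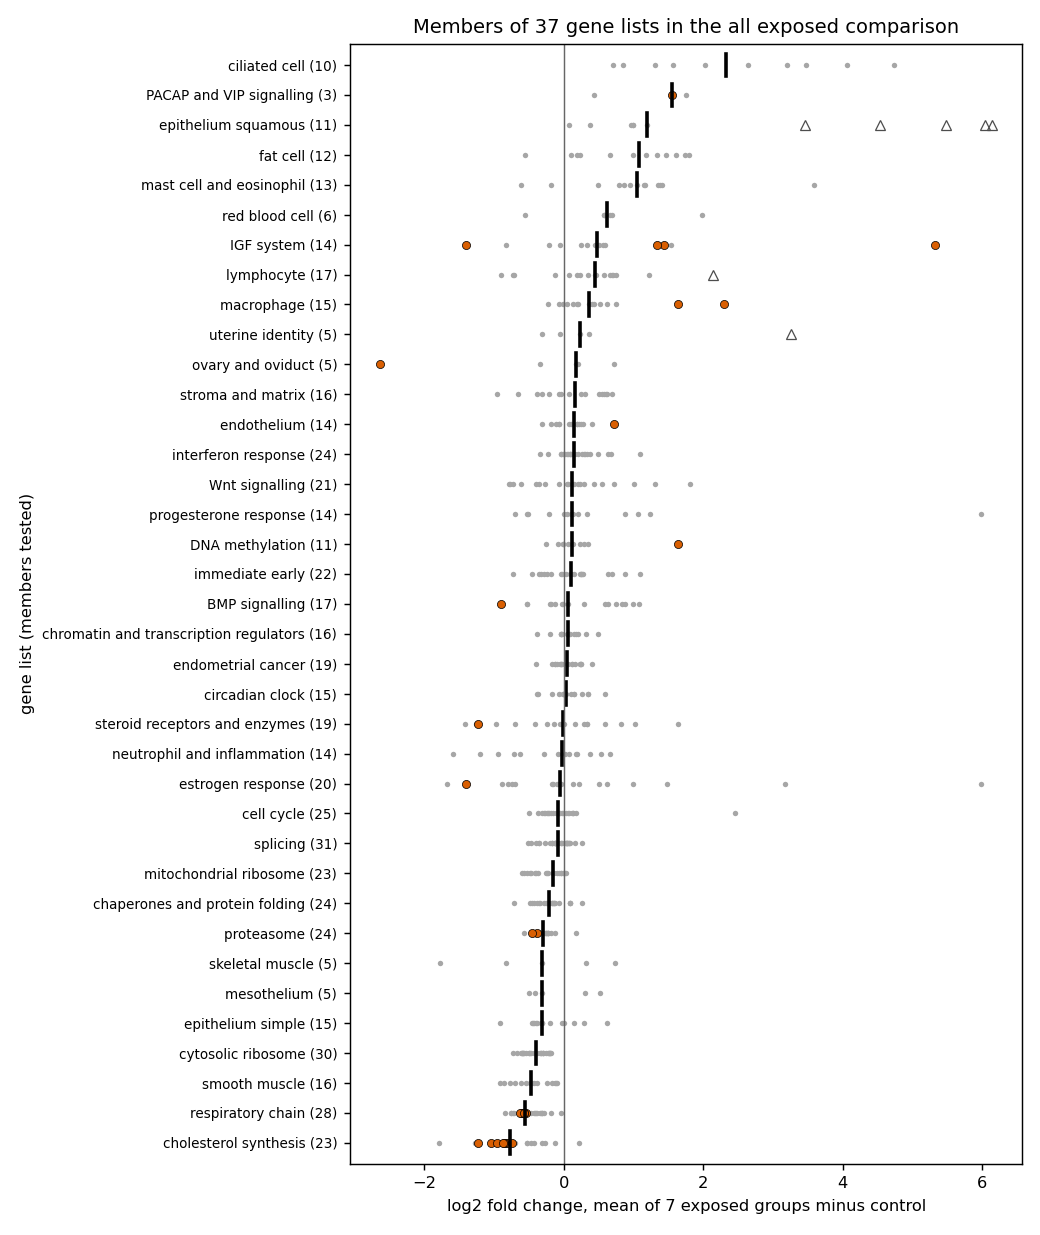
Log2 fold change of the exposed mean over control (x axis) for each tested member of 37 gene lists (rows, with the number tested): grey points did not pass, orange points are called, black bars are list medians, and open triangles are members with 3 or fewer control counts, whose fitted values are no measure of size. The cholesterol synthesis row has 8 called members and a median of -0.77.

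No gene passed the test for a change in every exposure, which takes the largest of the 7 p-values of a gene with all 7 differences on one side. It gave 0 of 13312 genes (0%) in edgeR after adjustment, 0 with limma voom and 1 with DESeq2 (Serpinb2, with no counts in the controls). Before adjustment, 105 genes (0.789%) had all 7 p-values under 0.05 on one side. These 7 comparisons use the same 4 controls and are not 7 independent looks. The smallest largest p was that of Adcyap1r1 (0.000241), followed by Tmem196 (0.00114), Ak5 (0.00254), Pamr1 (0.00325), Efemp1 (0.00326) and Nars1 (0.00347). Gpnmb, Cited2, Klf15, Get1, Adamts5 and Cpvl completed the 12 smallest, up to 0.0086. Tmem196, a membrane protein gene, was low throughout: 4 counts in all controls, and 0 to 3.73 CPM in the exposed libraries with a median of 1.04. Leaving out BPA 2500, the comparison with 0 genes called by itself, also gave 0 genes in every exposure.

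The 143 genes were unevenly called group by group, and the counts of single groups moved with single libraries. They included 3 of the genes called in EE2 0.05 (6 in all, 0.0451% of tested genes), 25 of those in EE2 0.5 (74, 0.556%) and 105 of those in BPA 2.5 (1524, 11.4%). They included 46 of those in BPA 25 (256, 1.92%), 73 in BPA 250 (1170, 8.79%), and 71 in BPA 25000 (309, 2.32%). In BPA 2500 edgeR called 0 genes (0%; 1353 at an unadjusted p under 0.05), DESeq2 87 and voom 0. Leaving out 1 library of its own group gave 0 (library 1) or 4 (library 3) called genes for BPA 25, 2 (library 2) for BPA 25000, 179 (library 1) for BPA 250, 686 (library 1) for BPA 2.5 and 1 (library 3 or 4) for EE2 0.5. Without control 2 the counts were 0 in both EE2 groups, 958, 0, 498 and 0 in BPA 2.5 to 2500 and 2 in BPA 25000. Without the 4 libraries that stood apart they were 21 and 168 in EE2 0.05 and 0.5, and 526, 1374, 884, 74 and 751 over the BPA doses from low to high. Of the 143, 141 lay on the same side of control in all 7 groups, as did 3665 of the 13312 tested. The mean over the 7 groups chose the 143, so nothing is read from this. The exceptions were Msmo1 and Emc6, which were level with control in BPA 250 and in BPA 25. Individual exposed libraries all lay on one side of the control mean for 87 of the 143 genes and 189 of all 13312; the 143 were chosen by the difference from that mean, so nothing is read from this either.

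**Figure D5:**
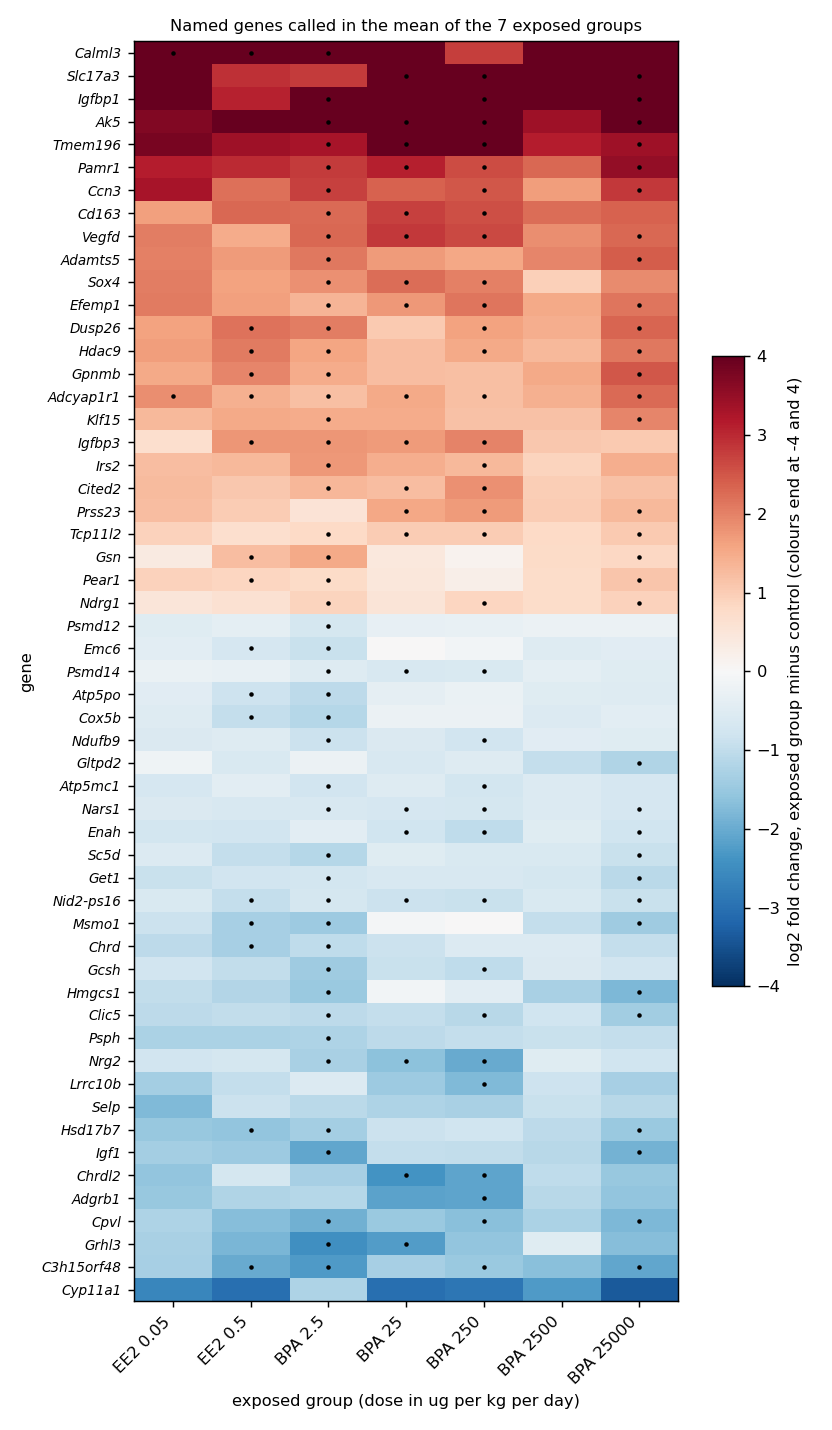
Log2 fold change over control in each of the 7 exposed groups (columns) for the named genes called in the mean of the 7 (rows, ordered by that mean); red is higher and blue lower than control, colours end at -4 and 4, and dots mark an adjusted p under 0.05 in that group. Every row but Msmo1 and Emc6 keeps 1 colour, Adcyap1r1 has dots in 6 columns, and the BPA 2500 column has none.

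Differences among the 7 exposed groups were tested with the controls given no weight. Of all tested genes 3950 (29.7%) differed (5613, or 42.2%, at an unadjusted p under 0.05), and of the 143 there were 34 (23.8%), made up of 17 of the 52 higher and 17 of the 91 lower genes. A share below or near that of all genes is not a result about the 143. For Msmo1, a sterol demethylation enzyme, group means were 66.1 and 48.3 CPM in EE2 0.05 and 0.5, 43.7 in BPA 2.5, 113 and 122 in BPA 25 and 250, and 62.7 and 45.2 in the 2 highest BPA doses, against 120 in control (adjusted p = 8.72e-05). BPA 25 and BPA 250 were thus at the vehicle level and the other 5 groups below it. Hmgcs1 had its 2 highest exposed means in the same groups, 237 and 194 CPM. Gsn was highest in EE2 0.5 and BPA 2.5 (means of 533 and 639 CPM, with 225 in control) and near the controls in BPA 250 (248 CPM). Igfbp1 had a mean of 2.40 CPM in EE2 0.5 and 50.5 CPM in BPA 25000, where libraries 2 and 4 were at 120 and 75.3 CPM and libraries 1 and 3 at 5.16 and 1.70 CPM. Slc17a3, a transporter gene, ran from 0.255 to 159 CPM over the exposed libraries. Adcyap1r1 itself differed among the exposed groups (adjusted p = 0.0182), highest in BPA 25000 and EE2 0.05. Nars1, Psph, Pamr1, Cd163 and Adamts5 were among the called genes that did not pass this test (adjusted p = 0.968, 0.898, 0.7, 0.801 and 0.737), which does not show that the groups were alike.

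Start regions of 300 bases were found in RefSeq for 10688 of the 13312 tested genes, 36 of the 52 higher and 69 of the 91 lower genes, and searched on both strands for 5 motifs. The single arm of the estrogen receptor site, GGTCA, was in 38.3% of all, 33.3% of higher and 39.1% of lower genes. The full estrogen response element (GGTCA, any 3 bases, then TGACC), which contains that arm, was in 0.00936% of all and in 0 of the called genes. TGANTCA was in 5.42% of all, 11.1% of higher and 5.8% of lower genes, and the cyclic AMP element TGACGTCA in 3%, 2.78% and 5.8%. The E-box CACGTG was in 8.97%, 19.4% and 10.1%. These are descriptions of short windows and were not tested. The C3h15orf48 region, chr3:130173285-130173584 on the plus strand of GRCr8, shows GGTCA on both strands (capitals), 149 and 66 bases before the start, and is printed because this gene had the smallest p among those that fell.
C3h15orf48: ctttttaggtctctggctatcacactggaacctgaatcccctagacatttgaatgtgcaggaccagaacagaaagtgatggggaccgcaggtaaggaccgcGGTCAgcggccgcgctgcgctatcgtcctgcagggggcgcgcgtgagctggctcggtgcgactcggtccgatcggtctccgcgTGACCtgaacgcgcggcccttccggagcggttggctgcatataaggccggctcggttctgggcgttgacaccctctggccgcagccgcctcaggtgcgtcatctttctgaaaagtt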

How the data were processed

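RNA of rat uterus was measured in 32 libraries, 4 in each of 8 groups named by the labels. The authors deposited whole-number counts of reads per gene for 17327 genes. Per the submitters' processing notes, bcl2fastq, TopHat and edgeR were used with build rn5; the sources used here give no versions, annotation or strand setting. Symbols came from RefSeq's GRCr8 table, used for names and for the start regions shown (17167 identifiers matched; the 160 others held 1.82% of counts).

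In R 4.3.3 with edgeR 4.0.16, filterByExpr (minimum count 10, minimum total 15) kept 13312 genes, TMM scaled the libraries, and a quasi-likelihood model with 1 mean per group gave 3 tests: the exposed mean minus control, the largest of the 7 p-values with control, and an F test among the exposed groups. Benjamini-Hochberg adjustment ran over all genes, with a threshold of 0.05. Each SE is the log2 fold change divided by the root of F. Ratios are of summed counts per library total, with an exact 95% interval that covers counting error only. DESeq2 1.42.0 and limma voom 3.58.1 (with sample weights) were alternatives. Simulated counts were used to check the 3 edgeR tests and no other step. In every pair of a group the counts differed by more than sampling noise.

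The gene lists (37 lists of 674 genes, 617 in the table) and the genes described were chosen with earlier results of these data known. The rule for described genes took called genes whose mean log2 CPM was 1 or more. It took the 12 largest rises, the 12 largest falls, the 10 smallest p-values and up to 12 whose libraries did not overlap. Added were the 12 smallest largest-p genes, the 6 with the smallest F test p, up to 4 called members per list and a panel (Esr1, Pgr, Igf1, S100g, Adcyap1r1, Krt5, Krt14, Mki67), which came to 61 genes. Slc17a4, Napsa, Slc2a9, Serpinb2 and further list members were named after their values were seen.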

Additional observations from a re-analysis of the deposited data

Results flagged for a closer look

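Among the 4 controls, the gap of control 1 in Cpvl (5.86 CPM, with 13.2 to 15.5 CPM in the others) came to 0.835 of the range on the scale of log2(CPM + 0.1), above Dixon's 95% criterion for 4 values. On the CPM scale it came to 0.763, which is below that criterion. For total counts, unlogged, the gap of the farthest control came to 0.877, above the criterion. There were 22 such tests, and chance gives about 1 in 20 groups such a gap.

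For 15 of the described genes called in the exposed mean, the 7 exposed groups also differed among themselves in edgeR's F test. Adjusted p-values were 8.72e-05 for Msmo1 and 0.0027 for Hmgcs1, enzymes of cholesterol synthesis, 0.00395 for Cox5b and 0.0202 for Atp5po of the respiratory chain, and 0.0104 for Igfbp1 and 0.0306 for Igfbp3 of the IGF system. The F test also gave 0.000227 for Gsn, 0.000599 for Slc17a3, 0.000751 for Emc6, 0.00206 for Calml3, 0.00229 for Gltpd2 and 0.0123 for Pear1. It gave 0.0182 for Adcyap1r1, 0.0305 for Nrg2 and 0.0409 for Prss23.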

How the results depend on the processing

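The count of 143 genes for the exposed mean moved more than 1.5 times under several alternatives. All 143 kept their direction in each except a filter of 1 CPM in 16 libraries, which tested 138 of them. The 143 were chosen on the same libraries, so nothing is read from this. The count was 72 with upper-quartile scaling, 75 without a filter and 7 with the 28 exposed libraries as 1 group. It was 76 with BPA and EE2 means weighted equally and 547 at an adjusted p under 0.1. DESeq2 called 654 (428 higher, 226 lower) and limma voom 2534 (1026 higher, 1508 lower). Without EE2 0.05, EE2 0.5 or BPA 25000 it was 53, 28 or 86, and 520 without the 4 libraries that stood apart, an alternative chosen after seeing the data. Leaving out 1 library gave 0 to 379. Genes changed in every exposure were 1 with DESeq2 and 0 to 0 without 1 library, and those differing among the exposed 7949 with voom and 3243 to 4841 without 1 library, against 3950. Mki67 was 0.24 with voom and -0.52 to 0.55 without 1 control, and Esr1 was -0.18 to 0.090, the latter without control 1. Of the 55 described genes called, 22 kept the call without each exposed library in turn, and 40, 0, 1 and 3 did without controls 1 to 4. No paired analysis was possible because the labels' library numbers tie no sample to another. Thinning all libraries to the lowest total, in 1 random draw, gave 114 genes. No library was left out there, so this count cannot be set against those without a control.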
